A study of Homo sapiens with 9 samples.

Results

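A stretch of human chromosome 1 carries a long copy of mitochondrial DNA, and the small non-coding RNA (sncRNA) alignments listed on it were mapped here by strand, gene, end position and length. All alignments on either strand that lay within chr1:564401-570400 (GRCh37/hg19) were taken, a window of 6000 nt. The window held 14,443 of the 3,688,019 alignments in the table, with 51,782 of 47,670,688 recovered reads. An alignment is 1 combination of start, end and strand, and its near neighbours are the other alignments of the same strand with a total shift of both ends of at most 3 nt. Recovered reads are the deposited reads count divided by the size of the group formed by an alignment and its near neighbours.

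The RNA came from untreated K562 cells, an established line from chronic myelogenous leukemia. Small RNA libraries from 3 independent batches of cells were sequenced, and the table gives only their pool, so no value has a replicate and no test between samples was possible. The 6 HEK293 samples of the study, transfected with sncRNA vectors or an empty vector, were not used here. No alignment on the mitochondrial chromosome (chrM) was listed. The table gives positions but not read sequences, and every sequence below is therefore the reference sequence at an alignment and not a sequence read from the cells.

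Mitochondrial DNA is transcribed from both strands into long precursors, in which most of the messenger RNAs (mRNAs) are separated by transfer RNAs (tRNAs). RNase P cuts at the 5′ end of each tRNA and ELAC2, a tRNase Z, cuts at its 3′ end, so that excision of the tRNAs also sets the ends of neighbouring mRNAs, and CCA is then added to the tRNA 3′ end. Over evolutionary time, pieces of mitochondrial DNA were copied into the nuclear chromosomes, and an alignment on such a copy can stem from RNA of either origin.

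A single BLAST alignment joined chr1:564461-570304, 5844 nt in length, to positions 3911 to 9755 of chrM in the same orientation, or 35.3% of the mitochondrial genome. Of 5846 aligned columns, 5760 were identical (98.5%), 83 were mismatches and 3 were gap positions. Carried over from chrM, the insert holds 11 tRNA genes, 5 on the plus strand and 6 on the minus strand, and 7 protein-coding genes, all on the plus strand, of which MT-ND1 and MT-CO3 are cut by the ends of the insert. The nuclear annotation (GENCODE) names the copies of the protein-coding genes as pseudogenes, MTND1P23, MTND2P28, MTCO1P12, MTCO2P12, MTATP8P1, MTATP6P1 and MTCO3P12, and gives no nuclear name to the tRNA copies in the window. The minus strand of the whole window also lies in the annotated gene ENSG00000230021, at chr1:521451-763176.

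The sequences below are shown because they are among the highest alignments of each strand and the results turn on where they start. They are printed 5′ to 3′ in the orientation of the RNA, and capitals mark bases that are also covered by another of the highest alignments of the same strand.
MT-TK 5′ end, chr1:568844-568863, plus: CACTGTAAAGCTAACTTAGC
MT-TK 5′ end, longer form, chr1:568844-568870, plus: CACTGTAAAGCTAACTTAGCattaacc
MT-TW interior, chr1:566074-566095, plus: taaataCAGACCAAGAGCCTTC
MT-TW interior, chr1:566080-566096, plus: CAGACCAAGAGCCTTCa
After MT-TW, chr1:566131-566147, plus: AACAGCTAAGGACTGCA
After MT-TW, longer form, chr1:566131-566152, plus: AACAGCTAAGGACTGCAaaacc
MT-ND2 start, chr1:565020-565043, plus: ATTAATCCCCTGGCCCAACccgtc
MT-ND2 start, shorter form, chr1:565020-565038, plus: ATTAATCCCCTGGCCCAAC
After MT-TK, chr1:568914-568935, plus: aatgccccaactaaatactacc
MT-TN interior, chr1:566224-566242, minus: ACTaagtgtttgtgggttt
MT-TN interior, chr1:566240-566263, minus: GATTAGGGTGCTTAGCTGTTaACT
Antisense to MT-CO3, chr1:569809-569836, minus: CATTAGGAGGGCTGAGAgggcccctgtt

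The insert stood out from its surroundings. The 6000 nt on either side of the window together held 9 alignments with 10 reads, and the 13 alignments that crossed an edge of the insert had 16 reads. Across the genome, 470,953 windows of the same length outside the insert held an alignment, with a median of 8 reads, and 79 of them (0.0168%) held at least as many reads as the insert. These other windows lay on a fixed grid, and none of them held as many distinct alignments, the next holding 4610. The window of the insert was instead placed to fit it, whereas a grid line can split a locus. A grid line ran through the neighbouring copies MTND5P11 (2735 alignments) and MTND4P12 (3055) on chromosome 5. The insert accounted for 0.109% of all recovered reads (Wilson 95% interval 0.108 to 0.110%), or 1086 RPM (reads per 1,000,000 recovered reads), and this level was 655 RPM when only alignments of at least 10 reads were counted. Intervals cover counting error only, because the table pools the batches. Reads carried no molecular identifiers, so amplified copies count as separate reads and the intervals may be too narrow.

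Among 402 other annotated nuclear copies of mitochondrial genes, 84 had no alignment and the median was 5.76 reads per kb. Pooled over their whole length, these copies had 181 reads per kb, against 8630 per kb pooled over the window. Copies with a higher level per kb than the window were 2 in number, MTND6P4 on chromosome 5 with 15,745 reads per kb (8219 reads) and MTRNR2L1 on chromosome 17 with 11,525 reads per kb (17,922 reads). The next by reads were MTND4P12 with 6008, MTND5P11 with 4653 and MTND5P10 with 1559, all on chromosome 5. MTND6P4, MTND5P11 and MTND4P12 lie side by side at chr5:134259813-134263726. The level of the window includes its tRNA segments, which had 29,951 reads per kb. Taken singly, the annotated copies in the window had from 3175 (MTND1P23) to 8192 (MTCO3P12) reads per kb. Some of the other copies lay within that range, among them MTND4P12 with 4363 reads per kb.

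Alignments were listed on both strands along nearly the whole length of the insert, as the plot of reads per base shows. Reads on the plus strand numbered 34,817 (67.2%, interval 66.8 to 67.6%) in 9148 alignments, and reads on the minus strand 16,965 in 5295 alignments. For comparison, the plus strand held 63.5% of reads in the table as a whole. Of the positions of the insert, 96.5% were covered on the plus strand and 93.5% on the minus strand, with a median coverage of 34 and 14 reads and a highest coverage of 4892 and 3845.

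The reads were unevenly shared among the alignments. A single read supported 63.3% of the alignments (73.6% in the whole table), while the 0.367% of alignments with at least 100 reads held 34.9% of the reads. The 10 highest alignments held 17.4% of the reads. That share was 26.2% with the deposited reads, 32.5% among alignments of at least 10 reads and 0.0692% when each alignment was counted once. A near neighbour was present for 91.1% of the alignments, against 33.8% in the whole table. Alignments were packed more densely on the insert, so these shares were not compared at equal density.

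As a set, the tRNA segments were covered more densely than the rest of the insert. They made up 12.9% of the length of the insert and held 43.6% of its reads (22,583, interval 43.2 to 44.04%), and the share was 68.0% among alignments of at least 10 reads and 13.9% when each alignment was counted once. In the sense direction the tRNA segments had 22,972 reads per kb and the protein-coding segments 3839 reads per kb, a ratio of 5.98. Single tRNAs differed widely, from 80,957 reads per kb at MT-TK, 68,301 at MT-TN and 56,500 at MT-TW to 2338 at MT-TD and 0 at MT-TQ and MT-TS1. MT-TI (4391) and MT-TC (4455) were below MT-CO2 (6053). Sense reads were 76.7% of the reads in tRNA segments and 66.4% in protein-coding segments, and over all genes 70.9% of reads were sense to the mitochondrial gene. When reads were assigned by their 5′ end, antisense reads in tRNA segments numbered 818 in place of 5262, the sense share of tRNA segments was 95.5% and their share of all reads was 34.8%.

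MT-TK, MT-TN and MT-TW, the tRNAs for lysine, asparagine and tryptophan, together held 83.7% of the sense reads of tRNA segments. MT-TK had 5667 sense and 37 antisense reads. MT-TN, on the opposite strand, had 4986 and 327, and MT-TW had 3842 and 54. The remaining tRNAs were far lower. MT-TY (tyrosine) had 906 sense reads, MT-TM (methionine) 674, MT-TA (alanine) 490, MT-TI (isoleucine) 303, MT-TC (cysteine) 294 and MT-TD (aspartate) 159. No reads were assigned to MT-TQ (glutamine) or MT-TS1 (serine). A floor of 3 reads is 0.00579% of the reads of the insert, but it limits their level only if no alignments were removed there.

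The empty stretches were sharply bounded. Both strands lacked any alignment at chr1:564879-564951 (73 nt), which spans MT-TQ, and at chr1:567999-568068 (70 nt), which spans all but the last bases of MT-TS1. Of the 20-nt stretches in them, 34 of 54 and 41 of 51 had a single exact match among the nuclear chromosomes, and every one had an exact match in chrM. Whether RNA, mapping or filtering left these stretches without an alignment was not tested.

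The fragments differed in the part of the tRNA from which they came. At MT-TK they started at the 5′ end of the tRNA. Of its sense reads, 4778 (84.3%) began at the first base of the gene, chr1:568844, in 30 alignments from 13 to 42 nt, of which the 20-nt form printed above had 1793 reads and the 27-nt form 201. This was the position of most 5′ ends on the insert, with 9.23% of its reads.

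MT-TN and MT-TW reads instead began inside the tRNA. In MT-TN, 57.1% of sense reads started at position 37 or 38, with 1062 and 1785 reads, and 377 started at the first base. Its highest alignment, from position 38, had 1271 recovered reads in a group of 23 alignments, and by the deposited reads count it ranked above the MT-TK alignment (29,233 against 28,688). In MT-TW, 82.2% of sense reads started at position 13, 18 or 19, with 1314, 384 and 1462 reads, and 20 reads started at the first base. The 22-nt alignment from position 13 had 1065 reads and the 17-nt alignment from position 19 had 613.

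The lower tRNAs were mixed in this respect. At MT-TY 473 of 906 sense reads (52.2%) started at the first base, the highest alignment being of 32 nt with 277 reads, and at MT-TA 220 of 490 (44.9%) did so. The share was 13.1% at MT-TM, 9.57% at MT-TI, 4.40% at MT-TD and 0.340% at MT-TC. Over all tRNAs, 34.6% of sense reads began at the first base (interval 33.9 to 35.3%), and without MT-TK the share was 10.4%.

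A second set of 5′ ends lay directly downstream of tRNAs. MT-ND2, which encodes a subunit of complex I, follows MT-TM with no base between them, and 2395 reads in 27 alignments began at its first base, or 52.1% of its 4594 sense reads. The bases next to it had 4 reads upstream and 13 downstream. MT-CO2, a subunit of cytochrome c oxidase, follows MT-TD in the same way, and 836 of its 4128 sense reads (20.3%) began at its first base, with 0 at either adjacent base. Between MT-TK and MT-ATP8, which encodes a subunit of ATP synthase, 410 reads began at the single base that separates the genes, and 24 at the first base of MT-ATP8.

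MT-TW was followed by the highest signal of this kind. A total of 4284 reads began at the first or second base after it, 1552 at chr1:566130 and 2732 at chr1:566131. These reads run through a short spacer into MT-TA, which is encoded on the other strand, and they made up most of the 4370 reads counted as antisense to MT-TA, whereas assignment by 5′ end gave 117 antisense and 470 sense reads. At chr1:566130 the insert and chrM differ, and the highest alignment with no exact match in chrM was the one at chr1:566130-566147, with 610 reads. The same bases from chr1:566131 onward do match chrM, and the alignment that begins there had 882 reads.

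The start of MT-CO1, the core subunit of cytochrome c oxidase, was less sharp. Here 141 reads began 3 nt upstream of the coding sequence, 74 began 1 nt upstream and 19 at its first base. MT-ATP6, which overlaps MT-ATP8 and is not preceded by a tRNA, had no reads that began at its first base, and MT-CO3 had 3. In all, the 22 positions that are the first base of a tRNA or the base after one are 0.188% of the positions on both strands, and 22.2% of the reads (5993 and 5490) had their 5′ end there.

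Few reads ended at the 3′ end of a tRNA. The base before the last had 140 reads, of which MT-TC had 65, the last base 47, the following bases 32, 126 and 165, and the fourth base past the end 5. Most of the ends at the third base were at MT-TW with 52, MT-TK with 47 and MT-TD with 26, while MT-TC had its highest number, 91, at the second. A mature tRNA carries CCA at these positions, and the genome has the letters of CCA at 2 of the 3 positions after MT-TW and at 0 of 3 after MT-TK and MT-TD. Whether reads ending in an added CCA that differs from the genome were lost in mapping was not tested. The low number of 3′ ends therefore describes listed alignments only. The position of 3′ ends was looser than that of 5′ ends over the whole insert, since the 10 highest 5′ end positions held 38.6% of reads and the 10 highest 3′ end positions 22.6%.

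Reads sense to the mRNAs were otherwise divided among many alignments. MT-CO1 had the most, 6294 reads in 3112 alignments, and its highest alignment had 50 reads, or 0.794% of them. In MT-ATP6 the highest held 1.23% of 1946 reads, and in MT-ND1, of which only part is copied, 3.27% of 703. Coverage on the sense strand was still uneven along these genes. Its median and highest values were 54 and 568 reads in MT-CO1, 29 and 313 in MT-ATP6, and 26.5 and 185 in MT-ND1. Among the highest alignments of the plus strand, the one in the interior of an mRNA was of 22 nt in MT-CO2, chr1:568309-568330, with 237 reads. Smaller peaks in the interior of genes were not counted. For MT-ATP8 the sense reads numbered 552 by overlap and 222 by 5′ end, because of the fragments that begin after MT-TK.

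Antisense reads were present at every mRNA and were concentrated at some positions. MT-CO1 had 2054 antisense reads, MT-ND2 1416, MT-CO2 1223, MT-ATP6 1062, MT-ND1 446 and MT-ATP8 86. MT-CO3, another subunit of cytochrome c oxidase, was the mRNA with more antisense than sense reads, 3434 against 1013. Of the antisense reads, 60.02% began at a single base, chr1:569836, with 2061 reads in 19 alignments of which the 28-nt form printed above had 660. In MT-ND2, a smaller peak of 356 reads began at chr1:565842, with a highest alignment of 26 nt and 153 reads. No tRNA gene lies at either position on the map.

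The reads of the insert were less concentrated at 22 to 24 nt than those of the whole table, and more of them were longer. The median by reads was 21 nt (quartiles 19 and 25) on the insert and 22 nt (18 and 23) in the whole table. Reads of 22 to 24 nt, the range in which microRNAs fall, made up 20.8% of the reads of the insert and 50.5% of all reads, and those of 25 nt or longer 26.0% and 4.12%. On the other nuclear copies of mitochondrial genes the same shares were 20.9% and 19.2%. The median was 21 nt on both strands of the insert, 20 nt for reads sense to tRNAs and 22 nt for reads sense to mRNAs, and within the tRNAs it ranged from 16 nt at MT-TM to 30 nt at MT-TY.

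The insert and chrM differ in 86 columns of their alignment, 83 of them mismatches, so the positions of the alignments could be compared with the 2 sequences. An exact match in chrM was found for 12,229 alignments (84.7%) and for 90.0% of the reads (interval 89.7 to 90.2%). Of all stretches of the insert with the same lengths as the reads, 72.6% had one. The same direction held in each length class, from 98.6% of reads against 82.5% of stretches at 10 to 14 nt to 84.4% against 63.2% at 29 to 42 nt. The median coverage, both strands together, was 23 reads at the mismatched positions and 68 over the insert. Reads at positions with no exact match in chrM numbered 5203, in 2214 alignments. They were not evenly spread, since 1552 reads in 14 alignments began at a single mismatched base, chr1:566130. The chrM sequence is a reference and was not read from these cells, and read sequences were not listed. The origin of these reads was therefore not determined.

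Identity with other places in the genome was common. A single exact match on the nuclear chromosomes was found for 73.0% of alignments and 80.2% of reads, and 60.9% of alignments had both a single nuclear match and a match in chrM. Of 12,335 alignments of at least 18 nt, 2670 (21.6%) had another exact nuclear copy, and 1383 of them were also listed at such a copy. For the 52 with at least 10 reads and just 1 other copy, all were listed at both places, with 1236 reads at the insert and 1196 at the other copy (50.8% at the insert). The methods state that only uniquely mapped reads were kept, yet these alignments were listed at both places. How reads were placed among identical copies was not tested, so the counts of the insert need not be uniquely placed reads. Reads from the mitochondrial genome, from the insert and from these other copies cannot be told apart where the sequences are identical.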

How the data were processed

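Small RNA libraries were prepared from 3 batches of K562 cells, selected on a gel and sequenced by the authors. Per the methods and the submitters' processing notes, reads of low quality were removed and the rest mapped by Bowtie2 2.2.9 to GRCh37, with uniquely mapped reads retained. Some sequences with another exact nuclear copy were nonetheless listed at both places. The sources used here do not say whether chrM was part of the index. The deposited table pools the batches and gives for each alignment a reads count and an RPKM, both computed by the authors. The RPKM denominator was 54,140,681 reads for every alignment, and RPKM was used only for this check. At all 1,246,133 alignments with a near neighbour, the deposited reads count was a whole multiple of the size of the group of the alignment and its near neighbours, so it was divided by that size, which gave 47,670,688 reads.

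The window was aligned to chrM of GRCh37 with BLAST 2.17.0+, and mitochondrial genes of GENCODE release 44 (lifted to GRCh37) were carried over. An alignment was assigned to the gene of largest overlap. Exact matches of each alignment's reference sequence were counted in the whole genome, and the neighbour count and the match count were checked on simulated data. The division was checked only on counts multiplied by the same group size, which cannot show how the deposited counts were made. Python 3.11.15, numpy 2.4.6 and pandas 2.3.3 were used. With a pool and no replicate, no test was made, and values are given with Wilson 95% intervals.

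Named were all genes of the window and the 5 other nuclear copies of most reads. The alignments named were drawn from 2 lists. The first held, per strand, the 10 alignments of most reads that are no near neighbour of a higher one. The second held, for each tRNA, its highest alignment on each strand where it had at least 100 reads. Not all members were described, among them the MT-TM alignment at chr1:564969-564983 with 111 reads. Other 5′ end positions named were chosen after their values were seen. The window and the lists were chosen with earlier results of these data known. Alternatives were the deposited reads, a minimum of 2 or 10 reads, a minimum length of 18 nt, any overlap with the window, leaving out the highest alignment with its near neighbours, a single nuclear match, assignment by 5′ end, the exact tRNA end and, chosen after seeing the data, each alignment counted once.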

Additional observations from a re-analysis of the deposited data

How the results depend on the processing

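With the deposited reads, the insert held 890 RPM, 64.8% on the plus strand, 54.6% in tRNA segments, 92.8% with an exact match in chrM and 26.2% in the 10 highest alignments. With at least 2 reads per alignment, these values were 948 RPM, 68.4%, 50.7%, 91.3% and 21.1%, and with at least 10 reads they were 655 RPM, 69.3%, 68.0%, 93.8% and 32.5%, with a median length of 20 nt. Among alignments of 18 nt or longer, they were 1192 RPM, 65.7%, 41.5%, 88.6% and 19.2%, with a median of 22 nt. Without the highest alignment and its near neighbours, they were 1006 RPM, 64.6%, 39.1%, 89.2% and 15.1%, and with a single nuclear match 871 RPM, 68.0%, 42.6%, 89.5% and 21.5%. With each alignment counted once, an alternative chosen after seeing the data, they were 3916 alignments per 1,000,000, 63.3%, 13.9%, 84.7% and 0.0692%, with a median of 22 nt. The cause of these shifts was not tested, and in each of these settings the plus strand held more than the minus strand. Any overlap with the window changed none of these values.

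Assignment by 5′ end gave 17,206 in place of 17,321 sense reads in tRNA segments, but 818 in place of 5262 antisense reads, so that the sense share there was 95.5% in place of 76.7% and the tRNA share of all reads 34.8%, while the sense share in protein-coding segments was 65.4%. It turned the direction at MT-TA, from a sense share of 10.1% to 80.1%, and brought MT-TD from 39.6% to 48.6%, and 29 of 36 gene and strand values stayed within counting error. The exact tRNA end gave 34.6% in place of 35.2% within 1 nt. No batch could be left out and no paired analysis was possible because the table pools the batches. Depth limits most single alignments, since 63.3% of them rest on 1 read.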
